A study of Mus musculus with 8 samples.

Results

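The 6 genes described here, Runx1, Runx3, Cbfb, Maf, Mafa and Shox2, encode transcription factors, or the partner of one, that act in classes of sensory neurons. They were taken by gene symbol, as every array probe that the platform annotation names with one of these symbols, which gave 12 of the 25697 probes and 6 of the 16593 named genes. Levels were read in dorsal root ganglia, the clusters of sensory neurons and glia beside the spinal cord, from mouse embryos at stage E12.5. Ganglia of 4 Erk1/2CKO(Wnt1) samples, called Erk1/2 mutant below, were compared with ganglia of 4 wild-type samples. The name reads as a conditional knockout of the kinases Erk1/2 by Cre recombinase under the Wnt1 promoter. That promoter acts in the neural crest, the source of the neurons and glia of these ganglia. Blood, vessel and macrophage cells have another origin. The labels state the genotype by this name and list no alleles, so they do not say which kinase was lost in which cells. They give 3 litters without saying which sample came from which, so some samples share a litter, and they do not say whether a sample was 1 embryo or a pool. The p-values therefore measure the spread between these samples, which may not be independent. All arrays lay on 1 slide, the mutant samples in positions E to H and the wild-type samples in A to D, so slide position and genotype cannot be told apart.

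RUNX proteins bind DNA through their Runt domain, and CBFB binds no DNA itself but holds that domain on its site. In sensory neurons of the mouse, Runx1 is known for the later specification of nociceptors, the neurons of pain and itch, and Runx3 for proprioceptors, the neurons that sense muscle stretch. Maf and Mafa encode large MAF factors, leucine zipper proteins found in early mechanoreceptors, and Shox2 encodes a homeodomain factor of touch neurons. ERK1/2 pass signals from receptor tyrosine kinases, the neurotrophin receptors among them, to transcription factors of the ETS family.

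The promoters of 4 of the 6 genes were matched in the RefSeq promoter windows of build GRCm38.p6, each reaching from 250 bases before a transcription start to 50 bases after it. Runx1 and Runx3 had 2 windows each, and Cbfb and Shox2 had 1 each. Maf and Mafa are only named. The windows were searched on both strands for ACCACA, the core that RUNX proteins bind (TGTGGT on the other strand), and for GGAAGT, an ETS core (ACTTCC on the other strand). Over all 32851 windows, ACCACA was held by 16.76% and GGAAGT by 23.77%. Runx1 and Runx3 are shown first because each holds 2 copies of ACCACA, in capitals, inside a run of 18 bases that both share. That run lay in 4 of the 32851 windows, those of Runx1, Runx2, Runx3 and Gm16225.
Runx1, chr16:92826025-92826054, minus strand, 21 to 50 bases after the start: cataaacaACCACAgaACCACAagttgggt
Runx3, chr4:135120503-135120532, plus strand, from base -142: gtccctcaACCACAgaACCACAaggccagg
The ACCACA copies began at bases 29 and 37 after the start of Runx1, and at bases -134 and -126 of Runx3. At least 2 copies stood in 1.811% of all windows. The other window of Runx1 and the other window of Runx3 held neither motif.

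Cbfb and Shox2 are shown because 1 of the 3 probes of each separated the genotypes and because their windows held the ETS core. The 250 bases before each start follow, with GGAAGT in capitals.
Cbfb, chr8:105170424-105170673, plus strand: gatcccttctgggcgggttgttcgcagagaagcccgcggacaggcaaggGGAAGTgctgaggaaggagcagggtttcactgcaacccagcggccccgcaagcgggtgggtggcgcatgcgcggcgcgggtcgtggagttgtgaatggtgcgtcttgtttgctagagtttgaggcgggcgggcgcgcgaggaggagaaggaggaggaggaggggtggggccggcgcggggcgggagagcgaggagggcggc
Shox2, chr3:66981772-66982021, minus strand: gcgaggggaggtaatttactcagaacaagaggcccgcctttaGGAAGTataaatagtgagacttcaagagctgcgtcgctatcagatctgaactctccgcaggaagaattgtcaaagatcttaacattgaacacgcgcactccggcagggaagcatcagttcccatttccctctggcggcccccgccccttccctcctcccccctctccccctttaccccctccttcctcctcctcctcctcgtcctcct
GGAAGT began at base -201 of Cbfb and again at base 5 after its start, and at base -208 of Shox2. At least 2 copies stood in 4.183% of all windows. ACCACA occurred in neither window. A match is a description of the letters, and binding was not measured.

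The arrays carry an intensity for each bead probe, which was background corrected, put on the log2 scale and quantile normalised, so that 1 unit is a doubling. A gene was tested where the mean of a probe over the 8 arrays lay above the median of all probe means, a log2 intensity of 6.71, and its brightest such probe stood for it. The median raw intensity was 138 to 147 on the mutant arrays and 144 to 159 on the wild-type arrays. The wild-type arrays formed pairs across all genes. Across genes, which are not independent replicates, r was 0.994 for replicates 1 and 2 and 0.993 for replicates 3 and 4, while arrays of different pairs correlated at 0.975 to 0.981. On the first principal component the mutant arrays lay between -12.2 and -6.95, wild-type replicates 1 and 2 at -3.81 and -3.02, and wild-type replicates 3 and 4 at 25.7 and 21.1. For several genes that rest on wild-type replicates 3 and 4, differences without them are therefore also given. The pairs were seen in the data and no label names them.

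Of the labels' tissue, 5 identity genes were measured. Isl1, a homeodomain factor of sensory neurons, averaged 14.46 ± 0.07 in the mutant and 14.36 ± 0.20 in wild-type (log2 intensity, SD, n = 4 each), among the brightest probes of the array. Pou4f1, another factor of these neurons, averaged 12.27 ± 0.21 in the mutant and 12.10 ± 0.21 in wild-type. Neither passed the test (limma adjusted p = 0.654 and 0.524). Isl1 lay at percentile 99.92 of all probes by mean, where quantile normalisation leaves little room for a rise. The genes that the genotype name refers to were not analysed here. Genes induced through ERK were listed to check the label of the mutant: 10 were tested, 6 of them fell, 0 rose and 4 did not pass, with a median log2 difference of -0.66 against 0.0018 over all genes tested. Egr2, a zinc finger factor, fell by 1.498 ± 0.10 on the log2 scale (SE, n = 4 per group; limma adjusted p = 8.3e-05), Etv4, an ETS factor, fell by 1.75 ± 0.13 (adjusted p = 1.4e-04) and Dusp6, a phosphatase of ERK, fell by 0.91 ± 0.11 (adjusted p = 0.00445).

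None of the 5 tested genes of the 6 passed the test between mutant and wild-type ganglia (0 of 5 by limma at an adjusted p under 0.05), where 2.51% of all 8935 tested genes did. At an unadjusted p under 0.05 stood 2 of the 5, Cbfb and Shox2, against 18.1% of all genes. Runx3 was not tested because its only probe lay under the filter level. Among the 5, no gene's mutant and wild-type arrays were fully apart, as 12.0% of all genes' arrays were. Among all genes 1.40% were called higher and 1.11% lower in the mutant. In a second fit over all 25697 probes without the filter, 1 of the 12 probes passed, a Cbfb probe that was lower in the mutant, against 1.14% of all probes. The arrays of the genotypes did not overlap for 2 of the 12 probes, that Cbfb probe and a Shox2 probe, against 7.67% of all probes.

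**Figure D1:**
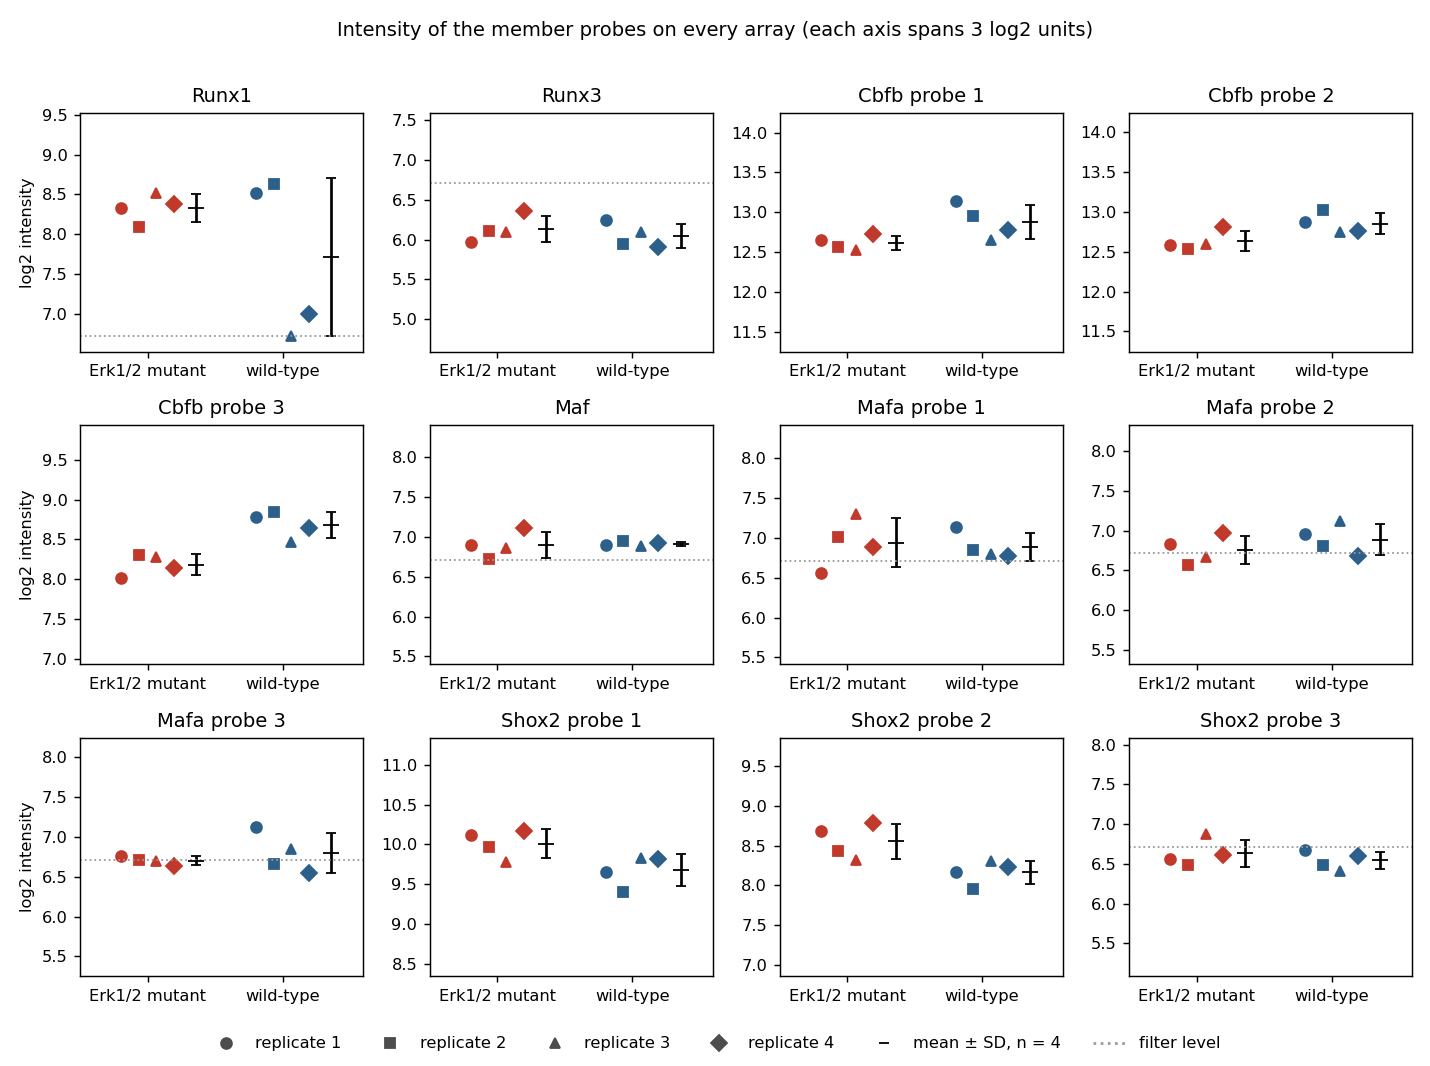
Log2 intensity of each of the 12 probes on every array, Erk1/2 mutant left and wild-type right, with a marker shape per replicate, the mean and SD of n = 4 as bars and the filter level of 6.71 dotted. The groups are apart for the Cbfb probe around 8.18 in the mutant and 8.68 in wild-type and for the Shox2 probe around 8.55 and 8.16 (mutant, wild-type), and wild-type replicates 3 and 4 of Runx1 lie under 7.01.

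Runx1, read by 1 probe (ILMN_2589107), was the member that varied most between arrays, over a range of 1.90 log2 units. Its level was 8.32, 8.09, 8.52 and 8.38 in mutant replicates 1 to 4, against 8.52, 8.62, 6.72 and 7.00 in wild-type replicates 1 to 4. The 4 mutant arrays lay close together, wild-type replicates 1 and 2 lay at or just above the highest of them, and wild-type replicates 3 and 4 lay more than 1 unit under the lowest. In raw intensity the mutant arrays read 331, 305, 367 and 379, and the wild-type arrays 458, 481, 144 and 182. Here 144 is also the median raw intensity of wild-type replicate 3.

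The mean of Runx1 was 8.33 ± 0.18 in the mutant and 7.71 ± 0.995 in wild-type (SD, n = 4 each). The log2 difference was 0.61 ± 0.40 (SE; 95% interval -0.27 to 1.50) and did not pass (limma adjusted p = 0.450). Without both wild-type replicates 3 and 4 it was -0.24 (adjusted p = 0.345), and without both wild-type replicates 1 and 2 it was 1.47 (adjusted p = 0.00112), so the choice of wild-type arrays set its sign and its call. Leaving out any single array kept it between 0.28 and 0.92 with no call. In bulk ganglia, fewer Runx1 cells and less Runx1 RNA per cell cannot be told apart.

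The genes whose levels over the 8 arrays were most like Runx1, by the root mean square of the differences after each gene's own mean was subtracted, were Sybu (0.172), Pirt (0.213) and Ogn (0.227, all in log2 units). Sybu encodes syntabulin, an adaptor for transport along microtubules, Pirt a membrane protein of nociceptors that modulates TRPV1, and Ogn the matrix protein osteoglycin. Pirt stood at 11.95, 11.77, 11.92 and 11.68 in the mutant, against 11.99, 11.95, 10.44 and 10.97 in wild-type. Like Runx1, it was low on wild-type replicates 3 and 4 and level on the other 6 arrays. The differences were 0.44 for Sybu, 0.49 for Pirt and 0.68 for Ogn, none of them called (limma adjusted p = 0.537, 0.429 and 0.436). All 3 also turned negative without wild-type replicates 3 and 4. Without wild-type replicates 1 and 2 all 3 passed (1.14, 1.13 and 1.57 in the same order, adjusted p = 0.00600, 0.00287 and 0.00207). In that last setting 1218 genes were called, against 224 with all 8 arrays. The 3 genes were chosen for likeness to Runx1 on these same arrays, so these shifts follow from the choice.

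Nociceptor genes were listed as the class in which Runx1 is known to act, and 4 of 14 were tested, since 6 lay under the filter level and 4 carried no probe name in the table used. Of the 4 tested, 0 rose, 0 fell and 4 did not pass, with a median log2 difference of 0.61 against 0.0018 over all genes. Scn10a, a sodium channel of nociceptors, read 9.79, 9.78, 10.20 and 9.49 in the mutant, against 9.63, 9.59, 7.73 and 8.04 in wild-type. Gal, the precursor of the peptide galanin, read 13.44, 13.17, 13.86 and 13.29 in the mutant, against 13.57, 13.47, 9.79 and 10.64 in wild-type. Both were low on the same 2 wild-type arrays as Runx1. The difference of Scn10a was 1.07 ± 0.41 (limma adjusted p = 0.204) and that of Gal 1.57 ± 0.77 (adjusted p = 0.310). P2rx3, an ATP-gated channel, differed by 0.15 (adjusted p = 0.607). It was also lowest on wild-type replicates 3 and 4, at 9.96 and 10.22, against 10.45 to 10.67 on the other arrays. Tac1, the substance P precursor, differed by -0.23 (adjusted p = 0.631). It read 6.56, 6.28, 6.61 and 7.04 in the mutant, against 7.15, 7.25, 6.31 and 6.67 in wild-type. Without both wild-type replicates 1 and 2, Scn10a (1.93), Gal (3.23) and P2rx3 (0.40) passed the test, and Tac1 did not. Without both wild-type replicates 3 and 4, Scn10a differed by 0.21, Gal by -0.081 and P2rx3 by -0.097, and none of these passed.

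**Figure D2:**
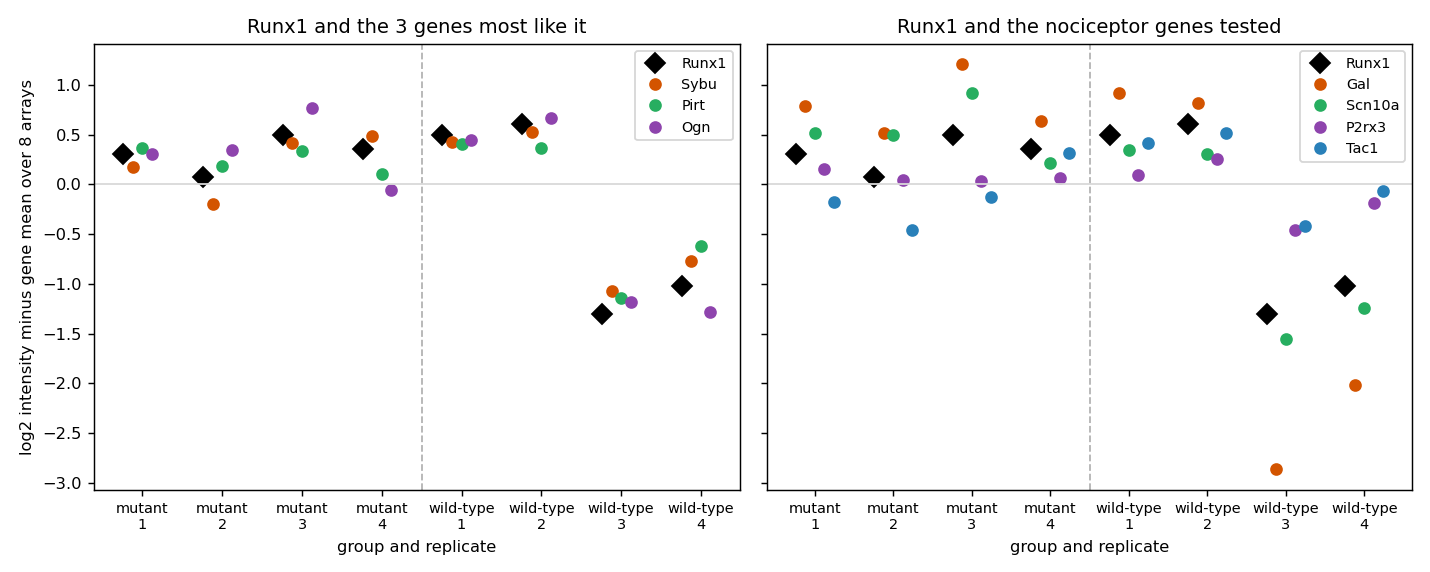
Log2 intensity minus each gene's mean over the 8 arrays, by group and replicate, for Runx1 with the genes most like it and for Runx1 with nociceptor genes. Wild-type replicates 3 and 4 are low for Runx1, Scn10a and Gal, and by less for P2rx3. For these genes the 4 mutant arrays and wild-type replicates 1 and 2 lie together.

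As a sum, markers of red blood cells were high on the same 2 wild-type arrays. Summed over the 9 tested of 13 erythroid markers, the normalised linear intensity ran from 57981 to 60926 on the mutant arrays and was 62393, 55441, 87370 and 75470 on wild-type replicates 1 to 4. None of the 9 passed the test, 6 had a negative difference and the median was -0.12. Hbb-bh1, an embryonic globin, read 11.96, 11.92, 10.92 and 12.37 in the mutant, against 12.06, 11.39, 13.96 and 13.61 in wild-type, and was picked out after its values were seen. The 2 brightest markers, Hbb-y and Hba-a1, did not follow it. They lay at percentiles 99.89 and 99.94 of all probes by mean. Quantile normalisation sets values by rank, which leaves little room for a rise there. The part of the normalisation in these values was not tested. Hbb-y read 14.38, 14.39, 14.43 and 14.46 in the mutant, against 14.36, 14.35, 14.28 and 14.33 in wild-type, and Hba-a1, another globin, 14.49, 14.51, 14.47 and 14.37 in the mutant, against 14.40, 14.33, 14.58 and 14.25 in wild-type. The markers of sensory neurons went the other way, with a sum of 45262 to 55043 on the mutant arrays and of 57217, 51295, 38358 and 43166 on the wild-type arrays. Their part in the Runx1 values was not tested.

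Runx3 was read by 1 dim probe (ILMN_2747141), whose mean was higher than that of only 15.2% of all probes. It stood at 5.97, 6.11, 6.10 and 6.36 in the mutant, against 6.24, 5.94, 6.09 and 5.91 in wild-type, all under the filter level. The difference in the fit over all probes was 0.091 ± 0.11 (SE, n = 4 per group; 95% interval -0.14 to 0.32; limma adjusted p = 0.810). The offset in the background correction draws the differences of dim probes towards 0.

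The list of mechanoreceptor and proprioceptor genes, the classes of Runx3, Maf, Mafa and Shox2, had 11 of 15 genes tested. Of these, 0 rose, 1 fell and 10 did not pass, with a median log2 difference of 0.067. Etv1, an ETS factor of proprioceptors that the list of ERK outputs also holds, read 6.79, 6.68, 6.68 and 6.90 in the mutant, against 7.98, 7.75, 7.38 and 7.72 in wild-type. It fell by 0.94 ± 0.12 (limma adjusted p = 0.00498), and its arrays did not overlap. Ntrk3, the receptor for neurotrophin-3 on proprioceptors, differed by -0.15 ± 0.30 (adjusted p = 0.831). Pvalb, a calcium buffer of proprioceptors, read 7.14, 6.70, 6.77 and 8.71 in the mutant, against 8.61, 8.74, 7.22 and 7.53 in wild-type. Mutant replicate 4 was high here, as it was for Ntrk3 at 10.12 against 8.59 to 9.10 on the other mutant arrays. The wild-type arrays of Pvalb also split by the pairs seen across all genes, 8.61 and 8.74 against 7.22 and 7.53. The Pvalb difference of -0.69 ± 0.47 did not pass (adjusted p = 0.478). Its size depended on the setting, from -1.34 to -0.043 over all alternatives, and it passed in none (limma adjusted p from 0.143).

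Cbfb, the shared partner of the RUNX proteins, was the brightest of the 6 genes and was lower in the mutant at all 3 of its probes, 1 of which passed the test. The brightest probe (ILMN_2837855) read 12.64, 12.56, 12.52 and 12.73 in the mutant, against 13.15, 12.95, 12.65 and 12.77 in wild-type. The ranges overlapped, since the highest mutant array lay between the 2 lowest wild-type arrays. The difference was -0.27 ± 0.11 (SE, n = 4 per group; 95% interval -0.52 to -0.017; limma adjusted p = 0.244). Without both wild-type replicates 1 and 2 it was -0.097 (adjusted p = 0.546). Without both wild-type replicates 3 and 4 it was -0.44 (adjusted p = 0.0672). The probe ILMN_2757743 read 12.59, 12.54, 12.59 and 12.81 in the mutant, against 12.88, 13.03, 12.75 and 12.77 in wild-type. It differed by -0.22 ± 0.09 and did not pass in the fit over all probes (adjusted p = 0.349).

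The dimmer Cbfb probe (ILMN_2671644) read 8.01, 8.31, 8.28 and 8.14 in the mutant, against 8.78, 8.84, 8.47 and 8.65 in wild-type. Every mutant array lay under every wild-type array. The probe averaged 8.18 ± 0.14 in the mutant and 8.68 ± 0.17 in wild-type (SD, n = 4 each). It fell by 0.50 ± 0.10 on the log2 scale (SE; 95% interval -0.72 to -0.28), to 0.707 of the wild-type level (limma adjusted p = 0.0374 over all probes). The call was lost without any single array other than wild-type replicate 3 (adjusted p up to 0.146), while the difference stayed between -0.57 and -0.44. It was also lost with both wild-type replicates 1 and 2 left out (-0.37, adjusted p = 0.0891), and it failed with the replicate number as a block (adjusted p = 0.0862), with a smaller background offset (adjusted p = 0.119) and with an intensity trend (adjusted p = 0.0549). The position of the 3 probes on the Cbfb transcript is not given in the sources used here. Which form of the transcript the dimmer probe reads is therefore unknown. The mean of the 3 probes differed by -0.33 (limma adjusted p = 0.0935).

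**Figure D3:**
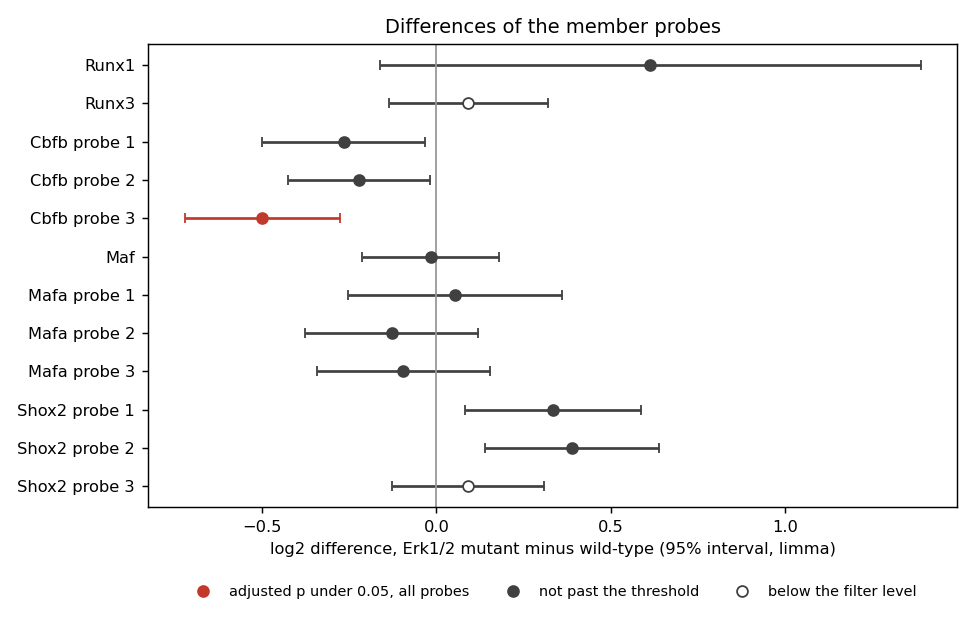
Log2 difference, Erk1/2 mutant minus wild-type, of the 12 probes with 95% intervals from limma over all probes. The Cbfb probe at -0.50 is the only one coloured as past the threshold, the 3 Cbfb probes lie left of 0, the 3 Shox2 probes right of 0, and Runx1 has the widest interval.

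The genes most like the dimmer Cbfb probe over the 8 arrays were Armc8 (root mean square difference 0.1003), a subunit of the CTLH ubiquitin ligase complex, Shisa5 (0.105) and Abhd14a (0.109). Armc8 read 9.03, 8.97, 9.11 and 8.94 in the mutant, against 9.49, 9.68, 9.31 and 9.42 in wild-type, and fell by 0.46 (limma adjusted p = 0.0351), a call lost when the mean of its probes was used (-0.15, adjusted p = 0.381), with the replicate number as a block (adjusted p = 0.118) and without any single array other than wild-type replicate 3 (adjusted p up to 0.109). Nearest to the brightest Cbfb probe were Ppa2 (0.0456), a mitochondrial pyrophosphatase, Zfp644 (0.0478) and Bdnf (0.0569), a neurotrophin gene. Bdnf differed by -0.28 (adjusted p = 0.251). Shisa5, Abhd14a, Ppa2 and Zfp644 did not pass the test.

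Glial markers were lower in the mutant by mean, as Cbfb was. Of 8 glial markers 2 were tested, and neither passed. Dhh, a hedgehog ligand of Schwann cells, differed by -0.86 (limma adjusted p = 0.0525) and Fabp7, a fatty acid binding protein of glia, by -0.52 (adjusted p = 0.188). Their summed normalised linear intensity was 533, 548, 780 and 475 on the mutant arrays, against 1163, 997, 688 and 748 on the wild-type arrays. Cdh19 and Foxd3 lay under the filter level, and the other glial markers were not analysed here. The part of glia in the Cbfb values was not tested.

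Runx1t1, Cbfa2t2 and Cbfa2t3 form the ETO family of corepressors, named after a protein that is fused to RUNX1 in human leukaemia. Of the list of RUNX relatives and these corepressors 3 of 4 genes were tested, while Runx2 carried no probe name in the table used. Of the 3, 0 rose, 0 fell and 3 did not pass, with a median log2 difference of 0.41 against 0.0018 over all genes. Runx1t1 read 11.58, 11.42, 11.47 and 11.96 in the mutant, against 11.33, 11.15, 11.22 and 11.09 in wild-type. Its mutant arrays all lay above its wild-type arrays, and the difference of 0.41 ± 0.12 (SE, n = 4 per group) did not pass (limma adjusted p = 0.114). Cbfa2t3 read 8.73, 8.56, 8.89 and 9.07 in the mutant, against 8.71, 8.64, 7.70 and 7.53 in wild-type. Like Runx1 it was low on wild-type replicates 3 and 4, and its difference of 0.67 ± 0.26 (adjusted p = 0.216) passed only without both wild-type replicates 1 and 2 (1.19, adjusted p = 0.00184) among the settings tried. Without both wild-type replicates 3 and 4 that difference was 0.14. Cbfa2t2 differed by 0.036 (adjusted p = 0.888).

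The Groucho/TLE corepressors bind a short motif at the end of RUNX proteins. The list holds 7 symbols, of which Aes is an older one of Tle5. All 6 genes were tested, and 0 rose, 0 fell and 6 did not pass, with a median log2 difference of 0.047. Tle4 read 11.09, 10.78, 10.70 and 11.06 in the mutant, against 11.62, 11.46, 10.96 and 11.21 in wild-type, an overlapping difference of -0.41 ± 0.15 (limma adjusted p = 0.186). Without both wild-type replicates 3 and 4 it was -0.63 and passed (adjusted p = 0.0470). Without both wild-type replicates 1 and 2 it was -0.18 and did not pass. Tle6 differed by -0.25, Tle5 by 0.21, Tle2 by 0.19, Tle3 by 0.072 and Tle1 by 0.022, with adjusted p between 0.248 and 0.942. Tle5 and Tle2 passed without both wild-type replicates 1 and 2 (0.33 and 0.44, adjusted p = 0.0329 and 0.0229). Without both wild-type replicates 3 and 4 they differed by 0.088 and -0.056 and did not pass.

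**Figure D4:**
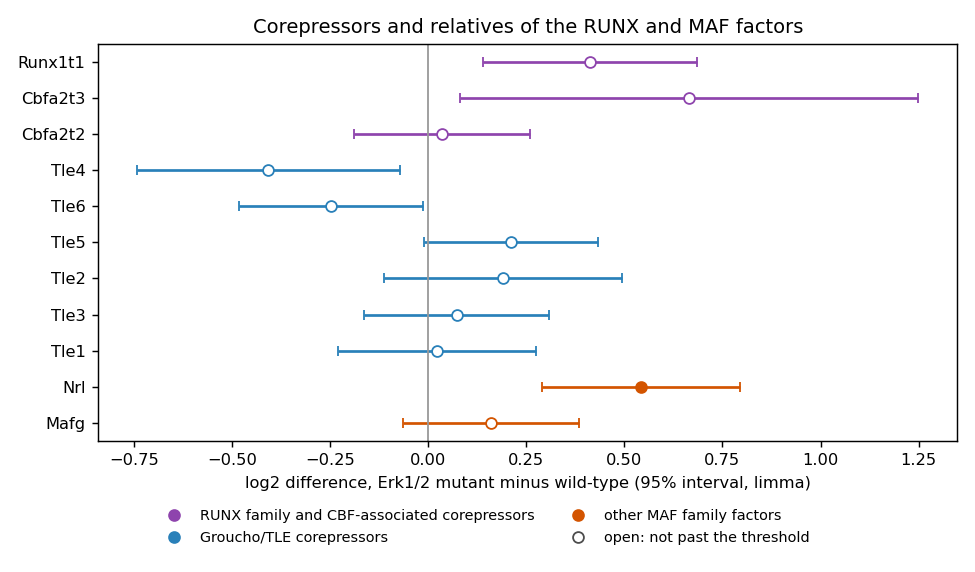
Log2 difference, Erk1/2 mutant minus wild-type, with 95% intervals from limma for the corepressors and relatives of the RUNX and MAF factors, coloured by list, with open points not past the threshold. Nrl at 0.54 is the only filled point, and the corepressors run from -0.41 for Tle4 to 0.67 for Cbfa2t3.

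Maf was read by 1 probe (ILMN_3100322) just above the filter level. It stood at 6.89, 6.72, 6.86 and 7.11 in the mutant, against 6.90, 6.94, 6.88 and 6.92 in wild-type. The wild-type arrays lay within the span of the mutant arrays, whose SD of 0.16 compares with 0.027 in wild-type. The difference was -0.016 ± 0.09 (SE, n = 4 per group; 95% interval -0.22 to 0.19; limma adjusted p = 0.947). The probe lay at percentile 55.1 of all probes by mean, where the offset in the background correction also draws differences towards 0.

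Mafa had 3 probes, all near the filter level. The brightest (ILMN_1212682) read 6.56, 7.01, 7.31 and 6.89 in the mutant, against 7.14, 6.85, 6.80 and 6.77 in wild-type, with a difference of 0.054 ± 0.15 (limma adjusted p = 0.888). ILMN_3157896 read 6.83, 6.57, 6.67 and 6.97 in the mutant, against 6.96, 6.80, 7.12 and 6.68 in wild-type. ILMN_3078590 read 6.77, 6.71, 6.70 and 6.63 in the mutant, against 7.13, 6.67, 6.85 and 6.55 in wild-type. The groups overlapped at each probe and the probes did not share a direction. In the fit over all probes the last 2 differed by -0.13 ± 0.11 and -0.10 ± 0.11 (adjusted p = 0.726 and 0.818). The genes most like the brightest Mafa probe were Gpx2 (root mean square difference 0.0757), Tspan2 (0.0956) and Cavin2 (0.0998). For the other probes they were Col9a1 (0.0789), Phf8 (0.0798) and Usp7 (0.0799), and Tnfrsf22 (0.0644), Lcor (0.0738) and Ttc14 (0.0761).

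Of the other MAF family genes, 2 were tested, 1 rose and 1 did not pass. Nrl, a large MAF factor known for rod photoreceptors, read 8.36, 8.45, 8.23 and 8.11 in the mutant, against 7.94, 7.86, 7.56 and 7.62 in wild-type. Every mutant array lay above every wild-type array. It rose by 0.54 ± 0.11 (SE, n = 4 per group; limma adjusted p = 0.0373), a call lost when mutant replicate 1, 2 or 3, or wild-type replicate 2, 3 or 4, was left out (adjusted p up to 0.126). It was also lost with wild-type replicates 3 and 4 both left out (0.39, adjusted p = 0.122), with median scaling (0.49, adjusted p = 0.0730) and with the replicate number as a block (adjusted p = 0.0519). Mafg, a small MAF protein and dimer partner, differed by 0.16 ± 0.10 (adjusted p = 0.436). Maff and Mafk lay under the filter level.

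Macrophages also express Maf and Runx1, and their markers differed between arrays. Of 15 macrophage markers 10 were tested and none passed by limma, though all 10 had a positive difference, with a median of 0.70. Their summed normalised linear intensity was 4642, 5568, 7100 and 2562 on the mutant arrays, against 3021, 3004, 3114 and 2954 on the wild-type arrays. Mutant replicate 4 was the lowest of the 8. On that array Runx1 stood at 8.38, and Maf, whose probe was near the filter level, at 7.11. On the wild-type arrays these sums ran from 2954 to 3114, and Runx1 from 6.72 to 8.62. The part of macrophages in the Runx1 and Maf values was not tested. Csf1r and Cd68 carried no probe name in the table used, and Ptprc, Spi1 and Cd14 lay under the filter level.

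Shox2 had 3 probes, and the 2 past the filter were higher in the mutant by means, without passing the test. The brightest (ILMN_2647121) read 10.12, 9.97, 9.78 and 10.17 in the mutant, against 9.65, 9.40, 9.83 and 9.82 in wild-type. Only mutant replicate 3 lay inside the wild-type range. The mean was 10.01 ± 0.18 in the mutant and 9.68 ± 0.20 in wild-type (SD, n = 4 each), a log2 difference of 0.33 ± 0.12 (SE; 95% interval 0.061 to 0.61; limma adjusted p = 0.183).

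The Shox2 probe ILMN_2997975 read 8.68, 8.43, 8.32 and 8.78 in the mutant, against 8.17, 7.96, 8.30 and 8.23 in wild-type. The groups did not overlap, although the lowest mutant and the highest wild-type array were close. The difference was 0.39 ± 0.12 (95% interval 0.14 to 0.64; adjusted p = 0.155 over all probes). The dim probe ILMN_1226318 read 6.56, 6.49, 6.88 and 6.61 in the mutant, against 6.67, 6.49, 6.41 and 6.60 in wild-type. It lay under the filter level and differed by 0.090 ± 0.10 (adjusted p = 0.800). The Shox2 gene kept a positive difference, from 0.18 to 0.48, and no call (adjusted p 0.104 to 0.375) under every alternative run.

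**Figure D5:**
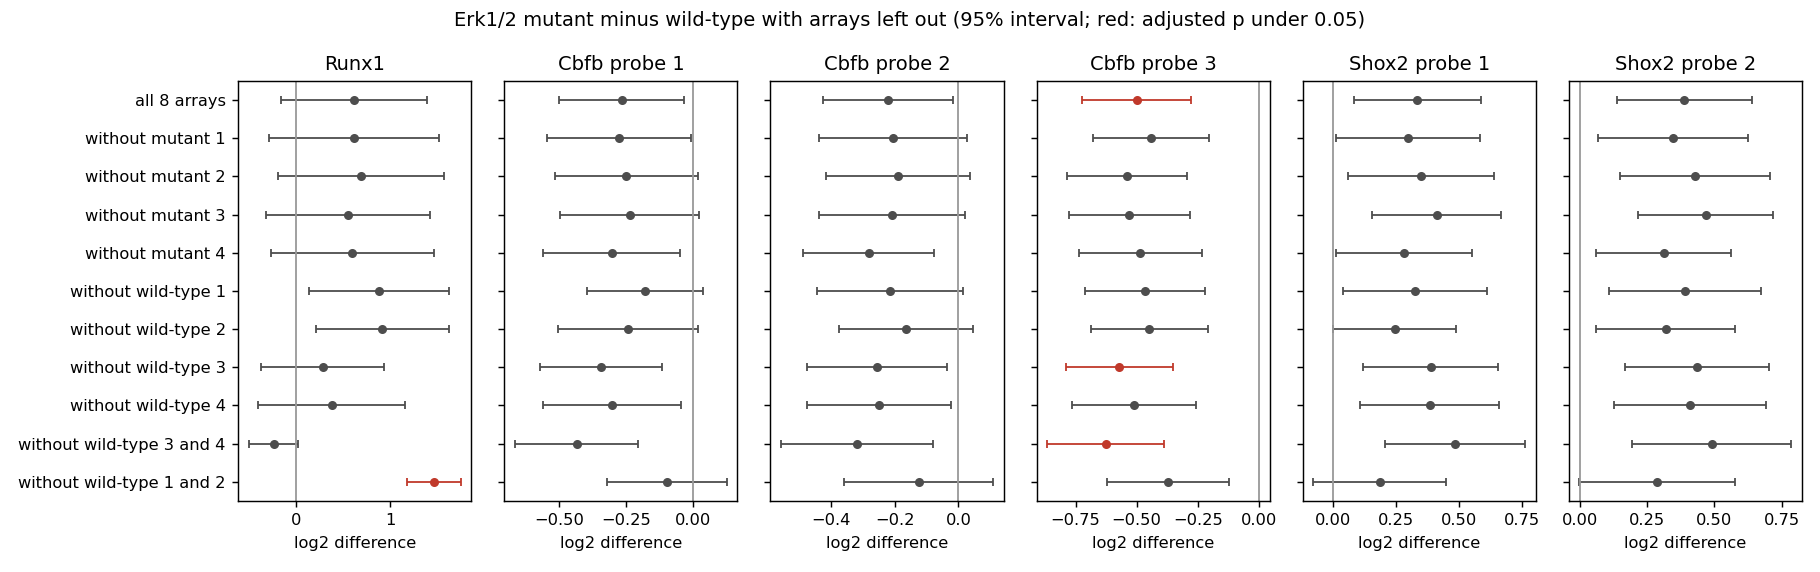
Log2 difference, Erk1/2 mutant minus wild-type, with 95% intervals for member probes in the fit of all 8 arrays and after arrays were left out, with calls in red. Runx1 moves from -0.24 without wild-type replicates 3 and 4 to 1.47 without wild-type replicates 1 and 2. The Cbfb points stay left and the Shox2 points right of 0. Without wild-type replicates 1 and 2 the interval of the brightest Cbfb probe includes 0.

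Nearest to the brightest Shox2 probe over the 8 arrays were Car4 (root mean square difference 0.0789), a carbonic anhydrase, Gpsm1 (0.0806), a regulator of G-protein subunits, and Cnot7 (0.0849), a deadenylase of the CCR4-NOT complex. Cnot7 was also the nearest to ILMN_2997975 (0.0822), before Klhl25 (0.0907) and Mark2 (0.0940), a microtubule affinity kinase. Cnot7 read 10.90, 10.71, 10.46 and 10.84 in the mutant, against 10.39, 10.27, 10.40 and 10.46 in wild-type. Its difference of 0.35 did not pass (limma adjusted p = 0.118) but did without mutant replicate 3 (0.44, adjusted p = 0.0492). No call was made for the differences of Car4, Gpsm1, Klhl25 and Mark2.

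Genes of touch neurons, the class of Maf, Mafa and Shox2, were set beside them. Ret, the receptor for GDNF family ligands, read 6.89, 7.25, 6.96 and 7.17 in the mutant, against 8.08, 8.38, 7.21 and 7.43 in wild-type. Its difference of -0.71 ± 0.23 did not pass (limma adjusted p = 0.148), but it did without both wild-type replicates 3 and 4 (-1.16, adjusted p = 0.00468). Without both wild-type replicates 1 and 2 the Ret difference was -0.25 and did not pass. Nefh, the heavy neurofilament, differed by 0.46 ± 0.14 (adjusted p = 0.116), with its mutant arrays all above its wild-type arrays, and passed without both wild-type replicates 1 and 2 (0.71, adjusted p = 0.00490). Without both wild-type replicates 3 and 4 the Nefh difference was 0.22 and did not pass. Ntrk2, the receptor for BDNF, differed by 0.093 at its brightest probe (adjusted p = 0.745). In the fit over all probes another Ntrk2 probe, under the filter level, rose by 0.56 ± 0.11 (adjusted p = 0.0276), while the remaining Ntrk2 probe differed by -0.78 ± 0.20 (adjusted p = 0.0992), so the probes of Ntrk2 did not share a direction. Scn10a, Tac1, Ret, Pvalb, Nefh, Ntrk2 and Ntrk3 were picked out after their values were seen.

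Of the factors shared by most sensory neurons, 10 of 11 were tested, 2 rose, 0 fell and 8 did not pass, with a median log2 difference of 0.34. Bcl11b, a zinc finger factor, read 10.99, 10.87, 10.99 and 10.82 in the mutant, against 10.29, 10.33, 10.33 and 10.18 in wild-type. It rose by 0.64 ± 0.08 (limma adjusted p = 0.00369), and its groups were well apart. Tlx3, a homeodomain factor known to act upstream of Runx1 in mouse sensory neurons, read 10.49, 10.51, 10.31 and 10.83 in the mutant, against 9.73, 9.94, 9.80 and 9.65 in wild-type. It rose by 0.75 ± 0.12 (adjusted p = 0.0108), with no overlap, whereas Runx1 was called neither in this fit nor after any single array was left out. With the replicate number as a block, Tlx3 did not pass (adjusted p = 0.0597).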

How the data were processed

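Total RNA of 8 ganglion samples was biotin labelled and measured on Illumina bead arrays. The deposited intensity table holds 25697 probes with no detection p-values or control probes, and BeadStudio is named per the submitters' processing notes without a version or settings. A processed log2 table was also deposited. Taking log2 of the intensities and quantile normalizing them matched it to within 5.0e-09, and each of its columns has a median of 7.21.

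Intensities were corrected with normexp (offset 50), put on the log2 scale and quantile normalized with limma 3.58.1 in R 4.3.3. Genes were tested two-sided with lmFit and eBayes, with Benjamini-Hochberg adjustment over all features at a threshold of 0.05, and the 12 probes of the members in the same way over all 25697 probes. Differences are mutant minus wild-type. Errors marked SE come from this fit. The number of arrays limits the precision, with a median standard error of 0.10 over all genes. The procedure was tested on simulated data drawn independently for each gene and array. The simulation held neither the wild-type pairs nor shared litters, so it does not cover their effect on the p-values.

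Symbols were assigned to probes by the platform annotation and RefSeq gene identifiers: 23978 probes have 1 symbol, 0 have several and 1719 have none. Promoter sequences come from RefSeq, build GRCm38.p6, and no build is given for the arrays in the sources used here. The members and gene lists were chosen with earlier results of these data known. Named genes are all members, every tested corepressor and family relative, up to 3 called genes of each other list (otherwise its 2 brightest), and the 3 genes most like each member probe whose range was at least 0.5. Markers of other cell types are given as lists. The shared replicate numbers were not taken as pairs of mutant and wild-type samples. The deviations of same-numbered samples correlated at -0.29 to -0.05, which cannot settle how samples were matched, as the litter of each sample is not given. Alternatives were the deposited log2 table, an offset of 16, cyclic loess, median scaling, other filters, averaged probes, array weights, a variance trend with intensity, the replicate block, a threshold of 0.1, and leaving out arrays.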

Additional observations from a re-analysis of the deposited data

Results flagged for a closer look

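Of 126 profiles of 4 arrays (a gene or probe in 1 genotype), 3 held an array whose gap to its nearest neighbour took more of the range than Dixon's 95% limit, which chance exceeds in about 1 in 20. Pou4f1, a factor of sensory neurons, stood at 11.97 in mutant replicate 3, with the gap taking a share of 0.843 of the range. Gpx2 stood at 7.495 in wild-type replicate 1 (share 0.8502), and Lcor at 7.04 in mutant replicate 1 (share 0.853). No profile of a Runx1, Runx3, Cbfb, Maf, Mafa or Shox2 probe was among them.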

How the results depend on the processing

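No member gene was called under any alternative but 1, Runx1 (1.47, adjusted p = 0.00112) without both wild-type replicates 1 and 2, which also raised the called genes to 1218. The called genes numbered 341 with array weights, 443 at an adjusted p under 0.1 and 67 to 200 when single arrays were left out (128 without wild-type replicate 3, 89 without wild-type replicate 4, 67 without mutant replicate 1, 79 without mutant replicate 2). With the replicate block they numbered 82 and no member probe passed. The count of called member probes was also 0 with an offset of 16 and with an intensity trend, and 0 to 1 when single arrays were left out. Median scaling moved the median of all genes to -0.06 and the calls to 57 higher and 181 lower in the mutant, against 125 and 99. It moved the brightest Cbfb probe to -0.42 (adjusted p = 0.112).

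Other uncalled differences changed sign. Leaving out single arrays gave ranges of -0.087 to 0.043 for Maf, -0.067 to 0.18 for the brightest Mafa probe, -0.18 to 0.015 for Mafa ILMN_3078590, -0.026 to 0.089 for Cbfa2t2, -0.0098 to 0.12 for Tle3, -0.068 to 0.092 for Tle1 and -0.47 to 0.044 for Ntrk3, the last positive at 0.00061 without wild-type replicate 3. Without both wild-type replicates 3 and 4 the differences were -0.24 for Runx1, -0.054 for Mafa, -0.031 for Isl1, -0.056 for Tle2, -0.14 for Tle1, -0.081 for Gal, -0.097 for P2rx3, -0.26 for Sybu, -0.14 for Pirt, -0.22 for Ogn and 0.16 for Ntrk3. Without both wild-type replicates 1 and 2 they were -0.073 for Cbfa2t2, 0.13 for Tac1 and 0.0031 for Mafa ILMN_3078590. The mean of a gene's probes gave -0.057 for Mafa, -0.34 for Ntrk2 and 0.0043 for Ntrk3. Array weights gave -0.011 for Mafa and -0.021 for Tle1, and median scaling -0.0079 for Isl1 and -0.096 for Tle1. The cause was not tested. Runx3, Maf and Mafa were dim, and the offset draws dim probes towards 0, so their values do not bound a change in RNA.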
